A study of Polistes metricus with 16 samples.

Results

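Brain RNA of 8 worker paper wasps was set against that of 4 foundresses trained to patterns, which are 12 of the 16 Polistes metricus females in the series. The members of this comparison were chosen by their sample titles and not by any measured value. The 4 foundresses (M1, M15, M4 and M5) were taken from nests in May and were trained to tell simple patterns apart. Of the workers, 4 (MW21, MW25, MW40 and MW42) lived on a foreign nest of their own species, here called conspecific, and 4 (MW30, MW32, MW41 and MW47) on a nest of Polistes fuscatus, here called allospecific, in each case for a week or longer. All 8 workers were trained on P. fuscatus faces, MW21 having been collected in June and the other 7 in July. Every wasp was an adult that went through 40 T-maze trials with negative reinforcement and was frozen 30 minutes after the last. Caste, training stimulus, time of year and stay on a foreign nest therefore differ together in this comparison and cannot be told apart. The series' remaining 4 wasps, foundresses trained to faces, were not used here.

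In Polistes, foundresses are mated females that pass the winter, start a nest in spring and lay its eggs, while the daughters that emerge later mostly forage and feed brood. Castes of these wasps look alike and remain flexible, so caste differences in the brain are studied largely as differences in gene activity. P. fuscatus is known for telling nestmates apart by their faces. Each sample is a whole brain, in which fewer cells of a type and less RNA per cell cannot be told apart. The deposited table gives transcript identifiers without gene names, so the results are given for identifiers, and neither gene roles nor marker genes of brain cells could be read. Nearby identifier numbers can be pieces or variants of the same gene, so transcripts are not counts of genes.

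The 12 libraries held 14949149 to 22832434 counts, with a mean of 20330839 ± 2373340 in foundresses (SD, n = 4) and 17886265 ± 1816760 in workers (SD, n = 8). Nothing in the labels says whether wasps of a group shared a birth nest. The 54371 identifiers with at least 10 counts in at least 4 of the 12 libraries were tested, and they held 99.3% to 99.5% of each library. No library pair within a group agreed within sampling noise, where the chi-square per degree of freedom was 6.81 to 52.3. Levels are given in CPM, the usual count scaled to library size, after TMM scaling, which evens out differences in library composition. A transcript is called where its adjusted p in edgeR's quasi-likelihood test lies under 0.05.

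Between workers and foundresses trained to patterns, 285 of the 54371 tested transcripts (0.524%) were called. Of these, 123 (0.226%) rose and 162 (0.298%) fell in workers, a split that was nearly even when M1, M15 or MW30 was left out (23 against 22, 37 against 35 and 121 against 119). Called changes that fell were larger, but they sat in rarer transcripts, and sizes were not compared at equal level. Their median log2 difference was -1.11, to 0.463 of the foundress level, against a median of 0.89, or 1.85-fold, among those that rose. The median level was 2.84 CPM among transcripts that fell and 15.1 CPM among those that rose, against 5.41 CPM over all tested. At least a 4-fold change was found in 21 that fell and 2 that rose, and at least a 2-fold change in 91 and 49. Across all tested transcripts the median size of the log2 difference was 0.17, with a median standard error of 0.18. In edgeR's test 7664 transcripts (14.1%) had an unadjusted p under 0.05, more than the 2719 that evenly spread p-values would give. The number called is thus not a measure of how many transcripts differed.

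**Figure D1:**
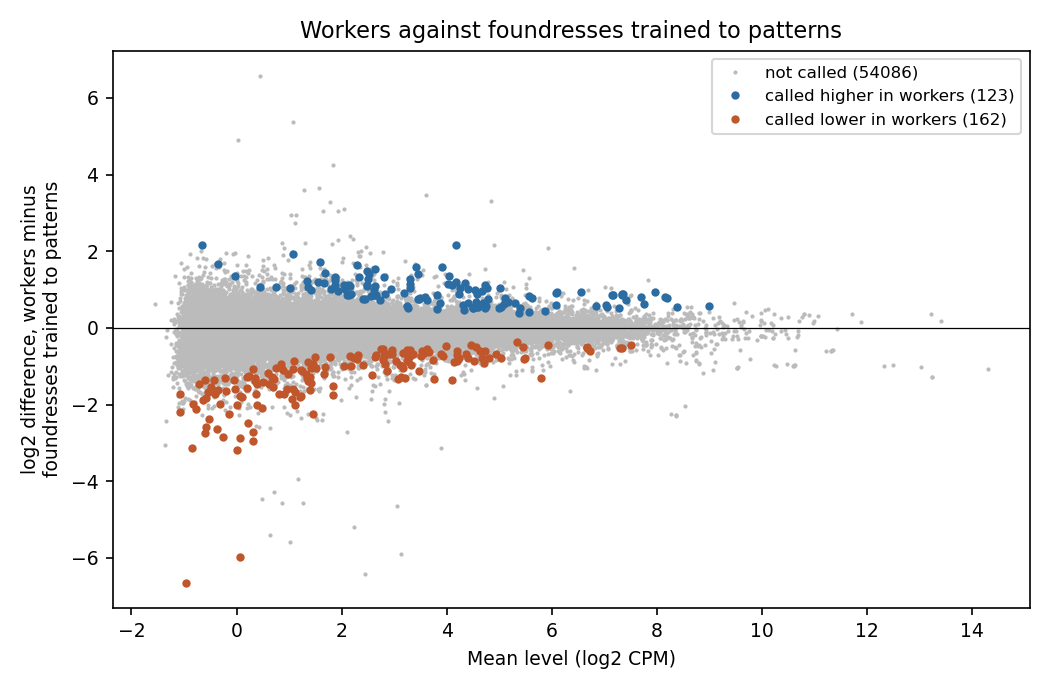
Log2 difference between workers and foundresses trained to patterns (vertical axis, workers minus foundresses) against mean level in log2 CPM (horizontal axis) for 54371 transcripts. The 162 called lower (orange) reach further from 0 and lie more to the left than the 123 called higher (blue), and several of the largest differences (grey) were not called.

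PmetTSAr2.0-032696, the identifier with the lowest p, was nearly absent from worker brains. Its counts were 84 in M1, 50 in M15, 28 in M4 and 40 in M5. Among workers it had 3 counts in MW21, 2 in MW42, 1 each in MW25 and MW30, and 0 in MW40, MW32, MW41 and MW47. Every foundress thus lay far above every worker, and M1 was the highest of the foundresses. The levels were 2.69 ± 1.54 CPM in foundresses (SD, n = 4) and 0.0488 ± 0.0669 CPM in workers (SD, n = 8). The pooled foundress level was 54.4 times that of workers, from 202 against 7 counts, with an exact 95% interval of 25.9 to 137 that covers counting error only. It passed the filter on low counts through the 4 foundresses alone, a choice that favors lower levels in workers. Its levels are therefore given as a description with no test. Of the 162 transcripts that fell, 12 were among the 32 tested that passed the filter through foundresses alone. Of the 123 that rose, 2 were among the 188 tested that passed through workers alone. Over all tested transcripts, 0.524% were called. Of the 20 identifiers numbered within 10 of PmetTSAr2.0-032696, 11 passed the filter. Among these, 1 more was near 0 in workers, with a log2 difference of -6.64. It too passed through the 4 foundresses alone and is given as a description only. The residuals of this neighbour around the group means correlated with those of PmetTSAr2.0-032696 at 0.839, so they may be the same gene. Both lay near 0 in workers, which leaves mainly the 4 foundresses to correlate. These 2 are the only tested identifiers with at most 5 counts in every worker and at least 10 in every foundress. The reverse, at most 5 in every foundress and at least 10 in every worker, was found in 0 identifiers, but it sets the higher minimum in 8 libraries instead of 4.

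PmetTSAr2.0-034564 was the second named transcript that fell, at a level high enough to be read without near-zero counts. It stood at 127 CPM in M1, 68.8 in M15, 84.0 in M4 and 87.7 in M5. Workers ran from 33.1 CPM in MW32 to 43.6 in MW21, with a median of 35.8. No worker reached the lowest foundress, and the workers lay closer together than the foundresses did. Means were 91.8 ± 24.6 CPM (SD, n = 4) and 36.9 ± 4.22 CPM (SD, n = 8), so that workers held 0.403 of the foundress level. On the log2 scale this is -1.31 ± 0.13 (SE), for which edgeR gave an adjusted p of 0.000792. Within 10 numbers of it 17 identifiers were tested, of which 3 more fell and 0 rose. Those 3 were much rarer, at mean levels of 0.76 to 1.76 CPM, and their residual correlations with it ranged from 0.167 to 0.865.

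PmetTSAr2.0-061777 had the lowest p among transcripts that rose. Its levels were 3.24 CPM in M1, 4.43 in M15, 4.70 in M4 and 5.61 in M5. Workers ran from 9.68 CPM in MW47 to 16.04 in MW40, with a median of 13.8. The groups did not overlap, and MW47 was the worker nearest to the foundresses. Workers averaged 13.6 ± 1.79 CPM (SD, n = 8) and foundresses 4.49 ± 0.977 CPM (SD, n = 4), a 3.03-fold difference. On the log2 scale this is 1.59 ± 0.15 (SE), for which edgeR gave an adjusted p of 0.000617. Within 10 numbers of it 18 identifiers were tested and 4 more rose, with log2 differences of 1.40 to 1.71 and residual correlations of 0.582 to 0.889.

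PmetTSAr2.0-117441 rose without called neighbours, since 0 of the 20 identifiers within 10 numbers of it passed the count filter. It stood at 3.94 CPM in M1, 3.95 in M15, 6.26 in M4 and 5.79 in M5. Workers ran from 9.63 CPM in MW47 to 15.6 in MW21, with a median of 12.2. Here too every worker exceeded every foundress, and the June worker MW21 was the highest. The means were 12.2 ± 1.97 CPM (SD, n = 8) in workers and 4.99 ± 1.22 CPM (SD, n = 4) in foundresses, a 2.44-fold difference. The log2 difference was 1.27 ± 0.15 (SE), and edgeR's adjusted p was 0.00179.

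**Figure D2:**
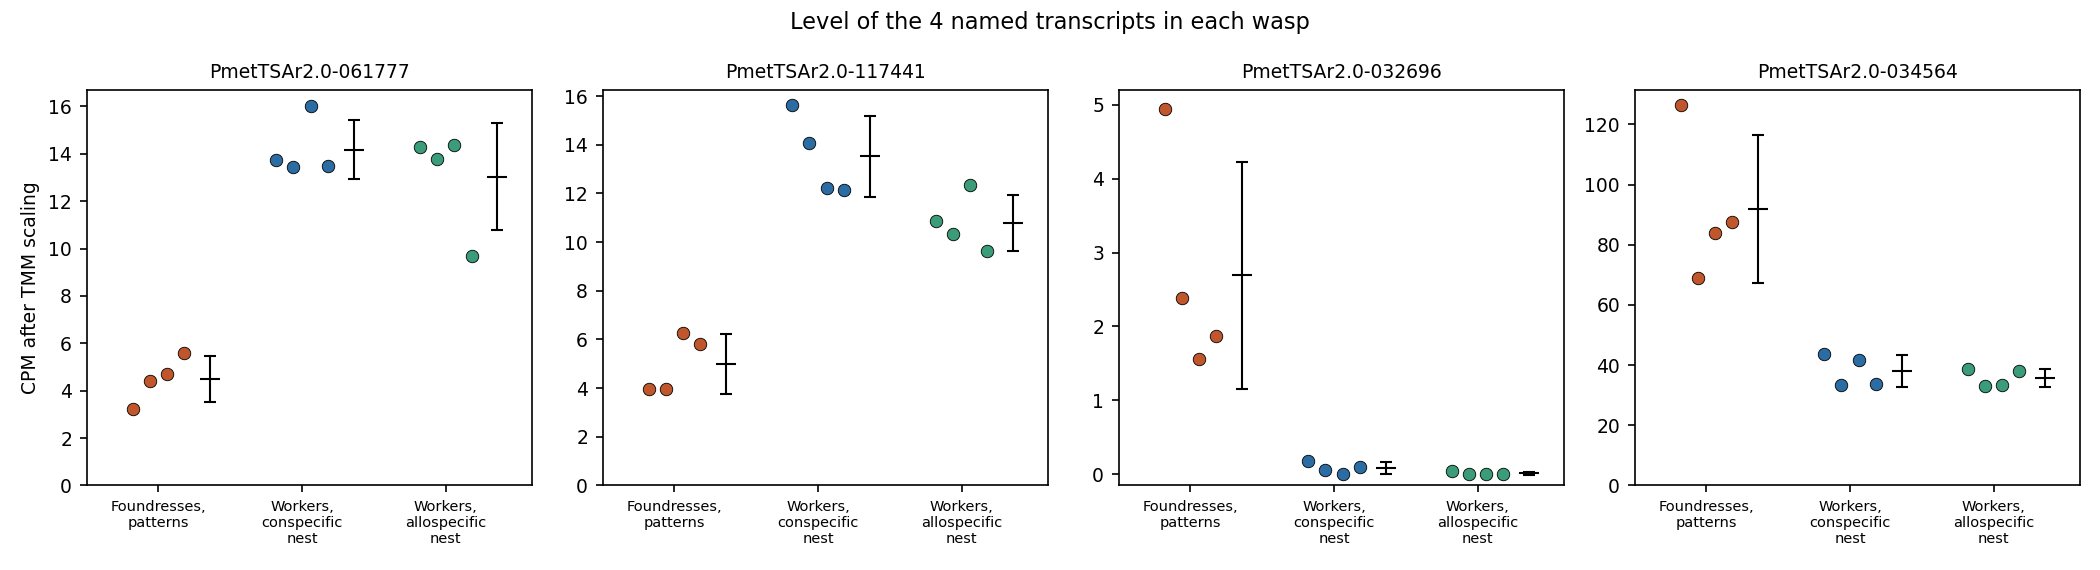
Level in CPM after TMM scaling (vertical axis, linear, a scale for each panel) of the 4 named transcripts in each of the 12 wasps by group, with bars for the mean and SD of each group of 4. In each panel the 8 workers lie entirely on the same side of the 4 foundresses, and PmetTSAr2.0-032696 lies between 0 and 0.185 CPM in workers.

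The 162 transcripts that fell held 0.261% ± 0.00766 of all counts in foundresses (SD, n = 4) and 0.171% ± 0.00846 in workers (SD, n = 8). The 123 that rose held 0.354% ± 0.0481 and 0.636% ± 0.0627 in the respective groups. These sums describe sets that were chosen on the same libraries. The share of tested transcripts that was called rose with level, from 0.419% in the lowest of 4 equal bins through 0.486% and 0.515% to 0.677% in the highest. The directions were spread unevenly over these bins. In the lowest bin 52 fell and 5 rose, whereas in the highest 31 fell and 61 rose. The median standard error of the log2 difference went the other way, from 0.32 in the lowest bin to 0.11 in the highest. So did the median size of the log2 difference among called transcripts, from 1.715 to 0.689. The larger size of the called changes that fell therefore cannot be told apart from their lower level.

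Changes shown to exceed 1.5-fold were few. Against a 1.5-fold threshold, edgeR's glmTreat, which asks whether a change exceeds that size, called 15 transcripts (0.0276%), 10 lower and 5 higher in workers. In 1317 transcripts (2.42%) the groups did not overlap, with every worker above every foundress in 588 (1.08%) and below in 729 (1.34%). Of the 285 called transcripts 255 showed no overlap and 30 did overlap. The largest differences were often not the called ones. A difference of at least 4-fold was estimated for 102 transcripts, of which 23 were called and 79 were not, and in 70 of those 79 the groups overlapped. In 9 of the 79 a lone wasp held more than 50% of the summed CPM, and in 0 of the 23.

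Some called transcripts lay beside each other in the numbering. Joined where numbers lay at most 3 apart, directions matched and residuals correlated above 0.7, the 285 fell into 236 runs, 92 that rose and 144 that fell. Single identifiers made up 204 of the runs and the other 81 identifiers lay in 32 runs of 2 or more. The longest run held 9 identifiers, all higher in workers, and the longest among those that fell held 3. Without the condition on correlation there were 211 runs, 170 of them single. The longest run then held 9 identifiers among those that rose and 6 among those that fell. No 2 called identifiers within 3 numbers of each other changed in opposite directions.

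Set against the same 4 foundresses, each worker group of 4 gave fewer calls than both together. Workers from conspecific nests differed in 61 transcripts (0.112%), 35 higher (0.0644%) and 26 lower (0.0478%). Workers from allospecific nests differed in 66 (0.121%), 39 higher (0.0717%) and 27 lower (0.0497%). The first count was 25 without M1, 31 without M15, 37 without M5, and 30 without MW25 or without MW40. The second was 3 without M1, 9 without M15, 17 without M5, 43 without MW40, 20 without MW30 and 6 without MW41. Because these comparisons share their foundresses, only their values are given side by side. The 123 transcripts that rose had a median log2 difference of 0.88 in conspecific and 0.89 in allospecific workers, and the 162 that fell had -1.09 and -1.14. These transcripts were called on the equal mean of both differences, so large values in both groups follow in part from the choice. For PmetTSAr2.0-061777 conspecific workers averaged 14.2 ± 1.25 CPM and allospecific workers 13.04 ± 2.25 CPM (SD, n = 4 each). For PmetTSAr2.0-034564 the corresponding levels were 38.1 ± 5.38 CPM and 35.8 ± 3.01 CPM (SD, n = 4 each). The level of PmetTSAr2.0-117441 was 13.5 ± 1.67 CPM in conspecific workers against 10.8 ± 1.15 CPM in allospecific workers (SD, n = 4 each), and its log2 difference of -0.32 ± 0.16 (SE), allospecific minus conspecific, had an adjusted p of 1.0 by edgeR.

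Whether the worker groups departed from foundresses by different amounts is the direct test between the nests. It called 0 transcripts by edgeR's quasi-likelihood test, limma-voom called 0 and DESeq2 1. In edgeR's test 1352 transcripts (2.49%) had an unadjusted p under 0.05, fewer than the 2719 that evenly spread p-values would give. The median standard error of the nest difference was 0.20 on the log2 scale. The unadjusted 95% interval of a transcript thus had a median half-width of 0.44. Of the 285 called transcripts, 25 (8.77%) had an unadjusted nest p under 0.05. Calls by caste and by nest divide by the same residual spread.

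Whole profiles of workers and foundresses trained to patterns lay apart as groups, but the distances of single pairs overlapped. The split into 4 foundresses and 8 workers took up 16.6% of the squared distance between the 12 libraries on log2 CPM. Any split of 4 against 8 takes up some share, and the share of this split cannot be assigned to caste alone. Of all possible ways to pick 4 wasps as the foundress side, 4 gave as much. The exact one-sided permutation p was 0.00808 (0.00202 is the smallest possible). Distances between a worker and a foundress had a root-mean-square size with a median of 0.614 log2 units over the transcripts, against 0.555 among foundresses, 0.564 among conspecific and 0.584 among allospecific workers. The range between workers and foundresses, 0.517 to 0.696, overlapped that among foundresses, 0.471 to 0.660. The library nearest to the June worker MW21 was that of foundress M5, at 0.517. MW42, the nearest worker to MW21, lay at 0.554. The first principal component, with 23.2% of the variance, placed the foundresses from -57.1 to -24.0 and the 7 July workers from -4.49 to 70.7, while the June worker MW21 lay among the foundresses at -53.01.

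Foundresses had more identifiers with a count. With all libraries brought to the lowest total, 14949149 counts, 88985 ± 2899 identifiers were expected to have at least 1 count in foundresses (SD, n = 4) and 83678 ± 1707 in workers (SD, n = 8). The values were 88415 in M1, 93235 in M15, 86993 in M4 and 87295 in M5, and from 81368 to 86267 with a median of 83564 in workers, so the groups did not overlap. The difference of -5307, workers minus foundresses, had an exact two-sided permutation p of 0.00202, the smallest possible. It lay in identifiers with very few counts. Those with 1 to 4 counts numbered 31066 ± 1279 in foundresses and 26259 ± 1882 in workers (SD). Identifiers with at least 5 counts numbered 57918 ± 1630 and 57418 ± 776 (SD), a difference of -500.1 with an exact permutation p of 0.493. For the following numbers the libraries were not brought to 1 total, and those of foundresses held more counts on average. Over the whole file of 127674 identifiers, 84 had a count in all 4 foundresses and none in any worker. Their median sum was 5 counts. The reverse, a count in all 8 workers and none in a foundress, was found in 6, with a median sum of 12.5, but the requirement of 8 libraries is stricter than that of 4.

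**Figure D3:**
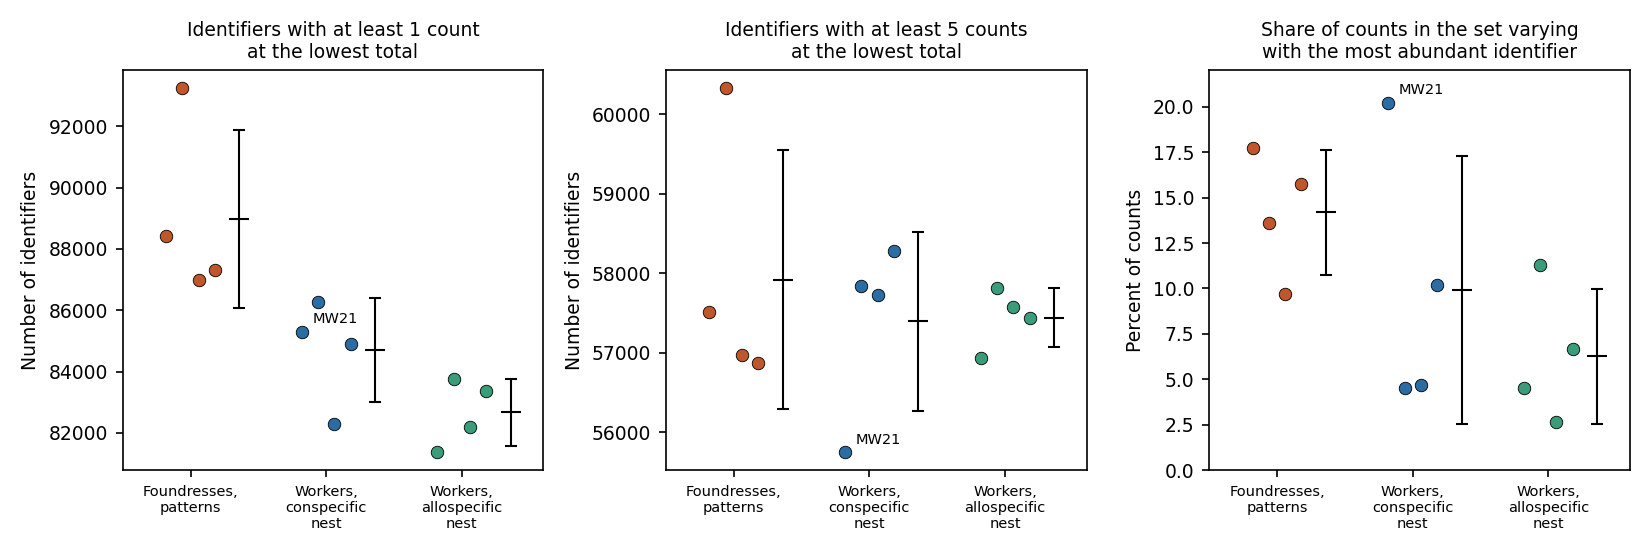
Values of each wasp by group, with bars for mean and SD (n = 4 each): identifiers expected to have at least 1 count (left) or at least 5 counts (middle) at a total of 14949149, on axes that do not start at 0, and the percent of counts in the set varying with the most abundant identifier (right). The left panel separates the 4 foundresses from the 8 workers, the middle panel does not, and in the right panel MW21 lies above every foundress at 20.2%.

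A set of 399 transcripts varied strongly between wasps, and its share of the counts overlapped between the castes. It was defined by log2 CPM that correlated above 0.9 with the most abundant identifier, and it held 14.2% ± 3.43 of counts in foundresses (SD, n = 4) and 8.10% ± 5.73 in workers (SD, n = 8). The foundresses ran from 9.71% in M4 to 17.7% in M1. The workers ran from 2.67% in MW41 to 20.2% in MW21, with a median of 5.67%, and 3 of the 8 lay above the lowest foundress. The median log2 difference of the set was -0.56, and 0 of its members were called in either direction. With the set left out before scaling, 297 transcripts were called, 284 of them among the 285.

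The wasps did not stand equally far along the difference. Each was left out in turn, transcripts were called without it, and its level on each was placed on a scale from 0 at the mean of the other foundresses to 1 at the mean of the other workers. The median position was -0.09 for M1, 0.12 for M15, 0.26 for M5 and 0.38 for M4. Workers lay from 0.61 in MW21 to 1.08 in MW40, with MW32 at 0.75, MW47 at 0.76, MW42 at 0.86, MW30 at 0.93, MW25 at 0.999 and MW41 at 1.04. Every wasp thus lay nearer to its own caste by the median, and the June worker was the worker nearest to the foundresses. MW21 was closer to the other workers on 60.0% of the 405 transcripts called without it, whereas MW41 was so on 98.4% of the 124 called without it. Foundress M4 was closer to the other foundresses on 64.1% of the 237 called without it. The positions rest on a different set of transcripts for each wasp. With 1 June worker, time of year within workers could not be tested.

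**Figure D4:**
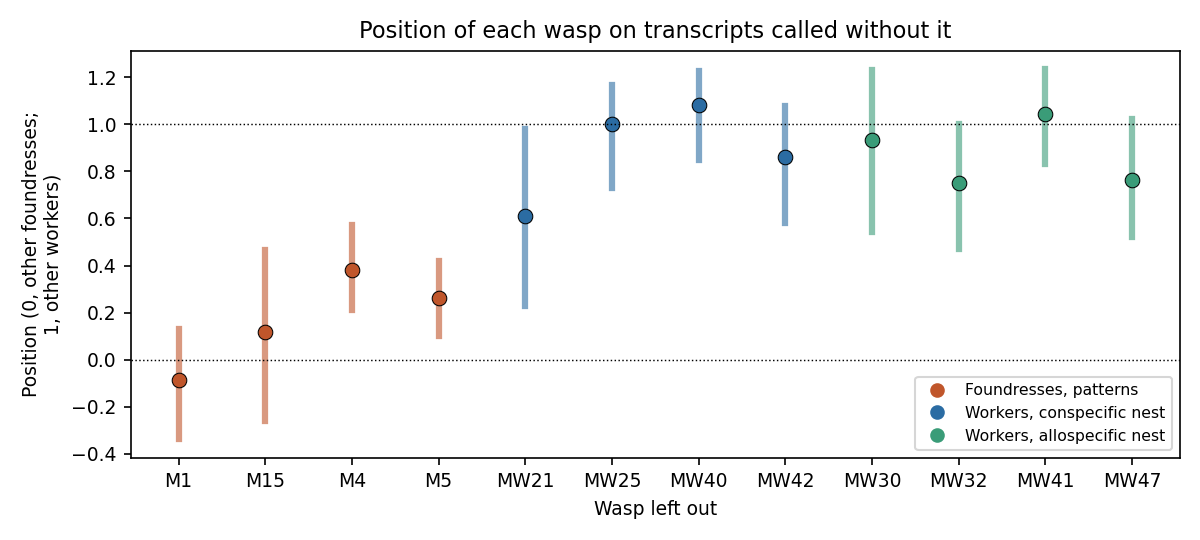
Median position (points) and quartiles (bars) of each wasp on the transcripts called without it, on a scale from 0 at the mean of the other foundresses to 1 at the mean of the other workers. The foundresses lie from -0.09 to 0.38 and the workers from 0.61 (MW21) to 1.08.

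The number of calls depended strongly on single wasps. Without M1 it fell to 45, without M15 to 72 and without M5 to 95, but without M4 it was 237. Among workers it was 124 without MW41, 131 without MW25, 134 without MW40, 197 without MW42, 240 without MW30, 286 without MW47 and 324 without MW32. Without MW21 it came to 405, of which 251 were among the 285. The named transcripts PmetTSAr2.0-061777, PmetTSAr2.0-117441 and PmetTSAr2.0-034564 were called by edgeR in all 12 of these fits. Their log2 differences were 1.47 to 1.72, 1.18 to 1.41 and -1.43 to -1.12. They had been chosen for their low p in the fit to all 12 wasps, which favored these calls. PmetTSAr2.0-032696 is left out of the count of fits, since with 3 foundresses left it could not pass the filter of 4 libraries.

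**Figure D5:**
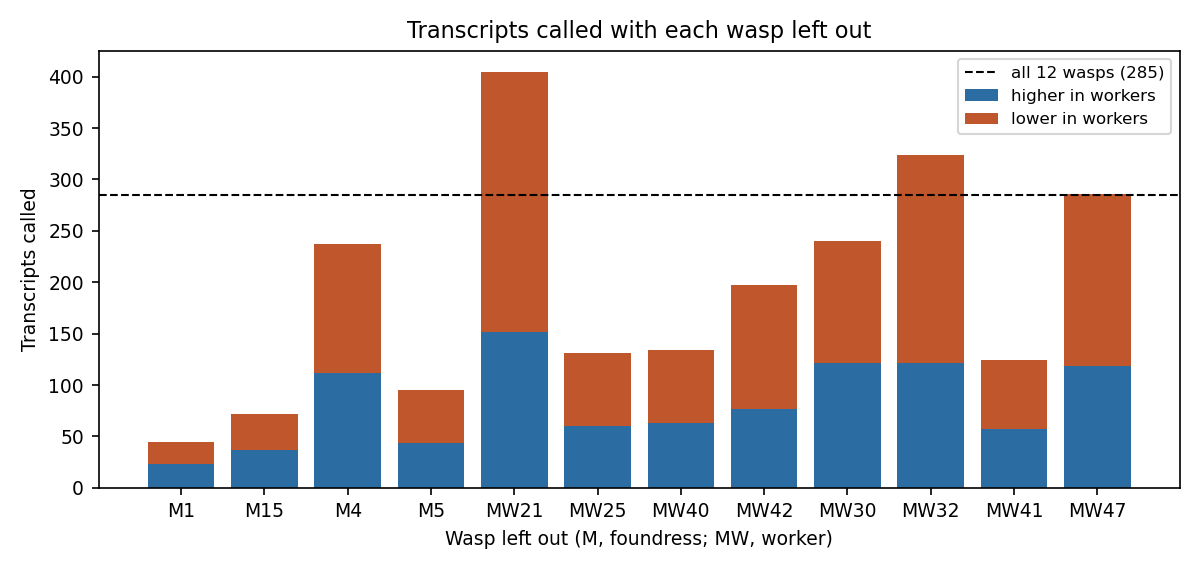
Number of transcripts called between workers and foundresses trained to patterns (vertical axis) with each of the 12 wasps left out, split into those higher (blue) and lower (orange) in workers, and a dashed line at the 285 called with all wasps. Bars run from 45 without M1 to 405 without MW21.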

How the data were processed

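Raw whole-number counts for 127674 transcript identifiers, with a column per wasp, were deposited by the authors. Whether these are reads counted directly or rounded estimates, which strand and transcript set were used, and how reads shared by similar transcripts were treated were not stated in the labels. Trimmomatic 0.32, Bowtie2 and eXpress are the tools in the submitters' processing notes. Per the labels' protocols, 1 µg of total RNA per brain went into each library.

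The wasp number in the sample titles gave each column its group. Totals and the filter are given with the results. edgeR 4.0.16 in R 4.3.3 fitted a mean for each of 3 groups to 12 libraries (9 residual degrees of freedom, TMM factors 0.872 to 1.10, common biological coefficient of variation 20.9%), with robust quasi-likelihood tests of the mean of both worker groups, and of each, against foundresses trained to patterns, and Benjamini-Hochberg adjustment over all 54371 transcripts. The standard error is the log2 difference divided by the root of its F statistic. Log2 CPM for distances used a prior count of 2. Expected identifiers at 1 total came from hypergeometric rarefaction. No covariate was fitted. The named transcripts are the 2 with the lowest p in each direction, passing over a second identifier within 20 numbers of the first. DESeq2 1.42.0, limma 3.58.1, other filters and scalings and leaving out each wasp were tried. The script was tested on simulated data. The edgeR p-values weigh a difference against the spread between these wasps within the 3 groups. The permutation p-values rank the observed split of the wasps among all possible splits. The comparison, the set of transcripts varying with the most abundant identifier and the tests were chosen with earlier results of these data known.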

Additional observations from a re-analysis of the deposited data

Results flagged for a closer look

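Among 44 groups of 4 or 8 values examined, 6 had a wasp far from the others, where chance marks about 1 in 20. The TMM factor of MW21 was 0.872, against 0.993 to 1.10 in the other 7 workers. MW40 had 82298 identifiers with a count, against 88142 to 88836 in the other 3 workers from conspecific nests, and it also had the lowest total. PmetTSAr2.0-061777 stood at 16.04 CPM in MW40, against 13.4 to 13.7 CPM in the other 3. The same transcript stood at 9.68 CPM in MW47, against 13.8 to 14.4 CPM in the other 3 workers from allospecific nests and 13.4 to 16.04 CPM in the other 7 workers, which makes 2 of the 6. PmetTSAr2.0-032696 was at 0.0469 CPM in MW30, from 1 count, against 0 in the other 3.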

How the results depend on the processing

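Counts of calls are given for workers together, workers from conspecific and workers from allospecific nests, in this order, all against foundresses trained to patterns, where the reported values are 285, 61 and 66. They were 1194, 417 and 595 with DESeq2, 1462, 454 and 795 with no low-count filter, and 795, 117 and 209 when transcripts with an adjusted p under 0.1 were counted. Weighting libraries by quality in limma-voom gave 722, 111 and 84, the last within 1.5 times. DESeq2 called 1 transcript between nests. DESeq2 size factors, limma-voom, edgeR's default filter and leaving out the 399 transcripts that varied with the most abundant identifier kept all 3 within 1.5 times. So did 2 means instead of 3 for workers together (372). The share higher in workers was 43.2%, ran from 37.3% without MW32 to 51.4% without M15, with 51.1% without M1 and 50.4% without MW30, and went to 31.6% with no filter, where the median log2 difference of all transcripts moved to -0.12. Leaving out each wasp gave 45 to 405, 25 to 70 and 3 to 82 calls, and 405 is also the count with July workers only. With a filter of 3 libraries, chosen after seeing the data, 312 were called, and 53 to 273 without each foundress. Against 1.2-fold, glmTreat called 57. The number of identifiers at 1 total differed by -500.1 at a minimum of 5 counts (exact permutation p = 0.493), and by -5971 to -3890 without each wasp. The share of squared distance was 15.8% to 20.4% without each wasp. PmetTSAr2.0-061777, PmetTSAr2.0-117441 and PmetTSAr2.0-034564, which were chosen by their low p in these same data, kept call and direction wherever they were followed. They were not followed with the filter of 3 libraries or with glmTreat. The causes of the changed counts were not tested. No paired analysis was possible because the groups share no replicate numbers.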
